A study of Mus musculus with 12 samples.

Results

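Tgfbr2 encodes TβRII, the type II receptor for TGF-β, and is 1 of the 25514 mouse genes with counts in these libraries. All Ensembl transcripts of Tgfbr2 with a row in the deposited counts were taken, which gave 2 transcripts, ENSMUST00000061101 and ENSMUST00000035014, of the 6 that GENCODE M39 lists for the gene. The cells were conditionally immortalized proximal tubule (PT) cells that were isolated from male mice with floxed alleles of Tgfbr2 and with H2ts6, the Immorto-mouse transgene for an interferon-inducible T antigen that is stable only at the lower temperature. All 4 groups carried H2ts6, were expanded at 33 °C with interferon gamma and were moved to 37 °C for 5 days before the experiment. TβRII flox/flox PT cells (H2ts6;Tgfbr2fl/fl) were the controls. TβRII-/- PT cells (H2ts6;Tgfbr2-/-) were made from them by adenoviral Cre in culture. The number of cell lines or Cre treatments per genotype is not given in the sources used here. Genotype and a difference between lines therefore cannot be told apart. Both genotypes were sequenced untreated, in complete medium with 2.5% serum, and after H2O2 for 24 h in serum-free medium, with 3 libraries per group. The methods also describe serum starvation before H2O2 was added. H2O2 and the lack of serum cannot be told apart in these groups. The labels give the dose as 200 mM and the methods of the study give 200 µM.

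TGF-β ligands are secreted in a latent form, are released by integrins or thrombospondin, and bind a pair of TβRII chains. TβRII is a constitutively active serine/threonine kinase that recruits and phosphorylates the type I receptor (Tgfbr1), which in turn phosphorylates Smad2 and Smad3, and these enter the nucleus with Smad4 to regulate target genes. In the kidney the pathway is known for its part in fibrosis, in the survival and growth arrest of tubule cells and in their dedifferentiation.

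Tgfbr2 lies on the minus strand of chromosome 9, at chr9:116087695-116175363 in the RefSeq gene table of GRCm38.p6, the build the authors aligned to. In GENCODE M39 on GRCm39 the gene spans chr9:115913361-116004800. There ENSMUST00000061101 has 8 exons and 592 codons and ENSMUST00000035014 has 7 exons and 567 codons. They share every exon but exon 2 of the longer transcript, an in-frame cassette of 75 bases and 25 codons that is 0.876% of its 8559 bases. The last exon, with 6265 bases, makes up 73.2% of the longer transcript, and the whole coding sequence 20.8%. Exon 2 is printed first because it is the only difference between the counted transcripts in GENCODE M39. Exons 3 and 4 follow because they encode most of the ligand-binding region outside the cell and because their lengths, 169 and 191 bases, are not multiples of 3, so that the loss of either one alone shifts the reading frame. The sequences are from GRCm39 and are written 5′ to 3′ on the strand of the gene, in lower case, with capitals for the splice-site bases AG and GT of the flanking introns. Exon 2 lies at chr9:115987339-115987413, exon 3 at chr9:115960613-115960781 and exon 4 at chr9:115958884-115959074.
Tgfbr2 exon 2: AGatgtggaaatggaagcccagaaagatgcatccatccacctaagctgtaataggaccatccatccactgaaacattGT
Tgfbr2 exon 3: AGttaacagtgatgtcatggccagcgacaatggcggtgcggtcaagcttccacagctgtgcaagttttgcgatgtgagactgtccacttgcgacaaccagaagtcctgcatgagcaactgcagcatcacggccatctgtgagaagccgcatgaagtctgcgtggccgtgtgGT
Tgfbr2 exon 4: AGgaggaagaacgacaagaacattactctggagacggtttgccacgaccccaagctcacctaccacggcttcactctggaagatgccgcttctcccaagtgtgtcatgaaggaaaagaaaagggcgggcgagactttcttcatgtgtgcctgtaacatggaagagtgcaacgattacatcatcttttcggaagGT

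In GENCODE M39 exon 3 is 1.97% of the longer transcript and exon 4 is 2.23%, so both together are a small share of its sequence. Reads were counted on the models of GENCODE M23, which were not used here. Which exon carries the loxP sites is not given in the sources used here. The deposited counts are sums over whole transcripts and do not show whether an exon was missing from the reads, so the level of Tgfbr2 does not check the genotype labels. The methods of the study report that immunoblotting and RNA sequencing verified the deletion. How the reads were used for this is not described there. The predicted gene Gm4668 lies on the opposite strand and overlaps exon 1 by 443 bases in GENCODE M39. It is not among the counted genes, and whether the counting used strand is not given in the sources used here.

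The gene counts on which the tests were run summed to between 15870155 and 20857618 per library. The PT label was compared with marker genes. Of 14 proximal tubule markers 6 were high enough to be tested. Lrp2, the endocytic receptor megalin, had 17279.8 ± 2656 normalized counts (SD, n = 3) in untreated TβRII flox/flox cells, and its partner Cubn had 123 ± 14.3. The phosphate transporter Slc34a1 was at or near 0 in every library, and Slc22a6 and Kap had no counts in any. Lrp2 made up most of the summed level of the 14 markers in untreated TβRII flox/flox cells. This sum was between 22028 and 28010 normalized counts there and between 15057 and 16088 in untreated TβRII-/- cells. Against untreated TβRII flox/flox cells, all 6 tested markers were lower in untreated TβRII-/- cells (edgeR, adjusted p under 0.05, 31.4% of all genes lower). The summed level of 8 general epithelial markers was between 22160 and 24443 in the former and between 42090 and 45010 in the latter. That of 7 fibroblast and pericyte markers was between 5545 and 6882 against 173 and 222, nearly all of it from Postn, while Lum and Meox1 had no counts in any library. Only 3 of these 7 were high enough to be tested. Of the 3, 2 were lower and 1 was higher in untreated TβRII-/- cells, where 31.4% of all genes were lower and 33.3% higher. The 6 endothelial markers summed to between 127 and 138 in untreated TβRII flox/flox libraries and to between 465 and 586 in untreated TβRII-/- libraries, nearly all of it from Kdr, and after H2O2 to between 22.7 and 26.4 and between 39.3 and 65.6. The 7 immune markers summed to between 905 and 1171 normalized counts over all libraries. Only 2 of these 7 were high enough to be tested, and 2 had no counts in any library. The part of these differences in the values of Tgfbr2 was not tested.

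Tgfbr2 was detected at a high level in all 4 groups, was lower in TβRII-/- cells than in TβRII flox/flox cells, and was higher after H2O2 in TβRII flox/flox cells. Values are counts of ENSMUST00000061101, the transcript with more counts, normalized by TMM to a library of 17351835 gene counts. The untreated TβRII flox/flox libraries held 9248, 8369 and 7562 normalized counts. The untreated TβRII-/- libraries held 6782, 6675 and 6358. Every TβRII-/- library was below every TβRII flox/flox library, and the spread was wider in TβRII flox/flox cells, with a coefficient of variation of 10.05% against 3.34%. The mean fell from 8393 ± 843 to 6605 ± 220.3 (SD, n = 3 each), a fold change of 0.787 with a 95% interval of 0.717 to 0.863. The log2 fold change was -0.35 ± 0.07 (SE), with an adjusted p of 2.81e-05 by the quasi-likelihood test of edgeR with Benjamini-Hochberg adjustment over 12971 genes. In this comparison 64.7% of all genes tested passed the same threshold, and 48.9% of all genes tested had a larger absolute log2 fold change than Tgfbr2.

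**Figure D1:**
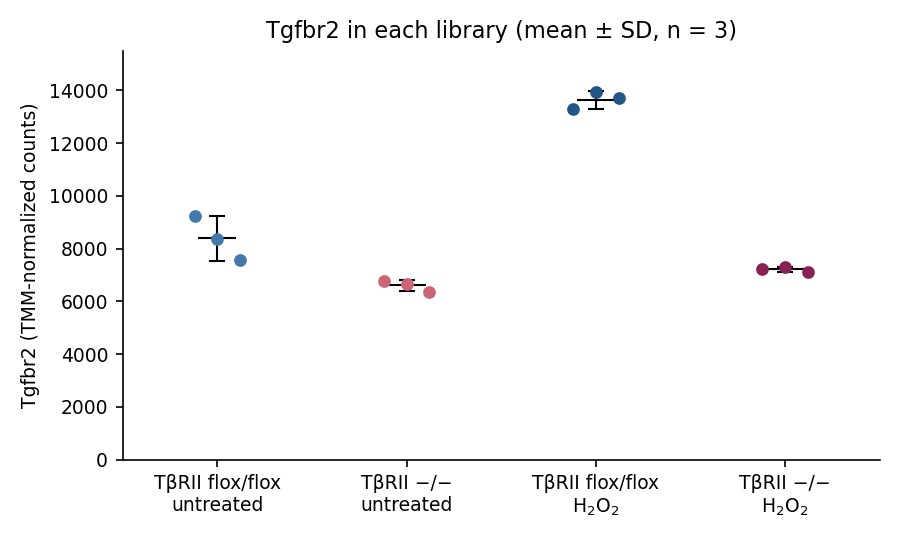
TMM-normalized counts of Tgfbr2 (vertical axis, from 0) in each library of the 4 groups, with points for libraries and bars for the mean ± SD of 3 libraries. The 3 H2O2-treated TβRII flox/flox libraries sit between 13275 and 13918, above all others, and the 6 TβRII-/- libraries lie between 6358 and 7311.

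With H2O2 the difference between the genotypes was larger. The H2O2-treated TβRII flox/flox libraries held 13275, 13918 and 13707 normalized counts. The H2O2-treated TβRII-/- libraries held 7221, 7311 and 7116. These are the widest apart of the groups that were compared, and each group varied little, with coefficients of variation of 2.40% and 1.35%. The mean was 13633 ± 328 in TβRII flox/flox cells and 7216 ± 97.7 in TβRII-/- cells, a fold change of 0.529 (95% interval 0.483 to 0.581) and a log2 fold change of -0.92 ± 0.07 (edgeR, adjusted p = 6.62e-14). Of all genes tested 66.4% were called, and 19.0% had a larger absolute log2 fold change.

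H2O2 in serum-free medium raised Tgfbr2 in TβRII flox/flox cells by a fold change of 1.62 (95% interval 1.48 to 1.78), with a log2 fold change of 0.70 ± 0.07 (edgeR, adjusted p = 3.42e-10). All 3 treated libraries were above all 3 untreated ones. Of all genes tested 41.6% were called in this comparison, and 8.97% had a larger absolute log2 fold change than Tgfbr2. In TβRII-/- cells the fold change was 1.09 (95% interval 0.996 to 1.20), and the log2 fold change of 0.13 ± 0.07 did not pass the test (edgeR, adjusted p = 0.122), although the treated libraries did not overlap the untreated ones. There 39.6% of all genes were called and 63.8% had a larger absolute log2 fold change. The test of the difference between the H2O2 effects of the genotypes gave a log2 value of -0.57 ± 0.09 (TβRII-/- minus TβRII flox/flox; edgeR, adjusted p = 7.85e-05). This test called 10.2% of all genes, and 9.27% had a larger absolute difference.

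**Figure D2:**
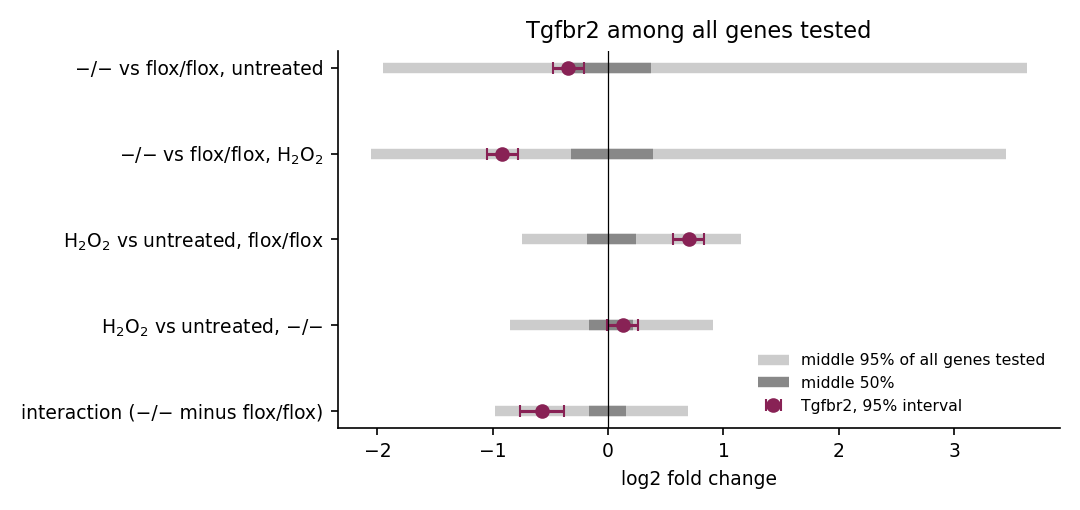
Log2 fold change of Tgfbr2 (horizontal axis) with its 95% interval in the 4 comparisons and in the difference of the H2O2 effects (interaction), over gray bands for the middle 95% and the middle 50% of all 12971 genes tested. Tgfbr2 lies inside the middle 95% of genes in every comparison and outside the middle 50% in all but H2O2 in TβRII-/- cells.

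In order of level the groups were H2O2-treated TβRII flox/flox, untreated TβRII flox/flox, H2O2-treated TβRII-/- and untreated TβRII-/- cells. The first and second differed by the test above. The second and the third were not compared by a test, and their nearest libraries, at 7562 and 7311 normalized counts, lay closer together than 1 SD of the untreated TβRII flox/flox group. The third and the last did not differ past the threshold. Counting error alone was between 0.861% and 1.24% of the count in a library, so the spread among untreated TβRII flox/flox libraries was larger than counting error.

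Per kb of transcript the level of Tgfbr2 was higher than that of between 88.7% and 95.9% of the genes tested, depending on the library. In untreated TβRII flox/flox cells it was 981 ± 98.5 normalized counts per kb, against 184 ± 9.56 for Tgfbr1, 149 ± 16.1 for Tgfbr3 and 10.8 ± 1.35 for Eng. In untreated TβRII-/- cells it was 772 ± 25.7 per kb, against 150 ± 5.88 for Tgfbr1 and 295 for Tgfbr3. Tgfbr2 thus had more counts per kb than any other receptor listed here, in both genotypes.

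Both transcripts of Tgfbr2 moved together. ENSMUST00000035014 lacks exon 2 in GENCODE M39. It held 6513, 5577 and 5205 counts as deposited in untreated TβRII flox/flox libraries and 4754, 4905 and 4862 in untreated TβRII-/- libraries. After H2O2 it held 9682, 10042 and 8699 counts in TβRII flox/flox cells and 5581, 6809 and 5236 in TβRII-/- cells. In a fit over 72055 transcripts ENSMUST00000061101 and ENSMUST00000035014 fell in untreated TβRII-/- cells, with log2 fold changes of -0.33 ± 0.07 and -0.36 ± 0.07, where 54.1% of all transcripts were called. With H2O2 the genotype difference was -0.93 ± 0.07 for ENSMUST00000061101 and -0.96 ± 0.07 for ENSMUST00000035014 (56.8% of transcripts called). In TβRII flox/flox cells H2O2 raised them by 0.72 ± 0.07 and 0.71 ± 0.07 (31.7% called). In TβRII-/- cells both had a log2 fold change of 0.11 ± 0.07, and 0 of 2 passed by edgeR (unadjusted p of 0.0969 and 0.0939, with 28.2% called) or by DESeq2. The difference of the H2O2 effects was -0.60 ± 0.09 for each (5.39% called). A read on an exon that both contain can count on both, so they are not independent measurements.

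The ratio of ENSMUST00000035014 to ENSMUST00000061101 compares the counts of the transcripts within a library and needs no scaling between libraries. In untreated TβRII flox/flox libraries it was 0.741, 0.742 and 0.740. In untreated TβRII-/- libraries it was 0.733, 0.711 and 0.732. After H2O2 it was 0.740, 0.745 and 0.727 in TβRII flox/flox cells and 0.713, 0.732 and 0.732 in TβRII-/- cells. The ratio was close to 0.74 in 5 libraries of TβRII flox/flox cells, and it was lowest in replicate 2 of untreated and replicate 1 of H2O2-treated TβRII-/- cells. Replicate 3 of H2O2-treated TβRII flox/flox cells lay within the range of TβRII-/- cells, so the genotypes overlapped with H2O2 and did not overlap without it.

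The group means of the ratio were 0.741 ± 0.000668 and 0.725 ± 0.0122 in untreated TβRII flox/flox and TβRII-/- cells, and 0.738 ± 0.00921 and 0.726 ± 0.0107 after H2O2 (SD, n = 3 each). Over both treatments the ratio fell by 0.0136 in TβRII-/- cells, and its log2 by 0.03 (two-sided exact permutation test within treatment, p = 0.015, adjusted p = 0.03 over 2 tests, with 0.005 the smallest p the design allows). This is a small difference, and without any 1 of 7 libraries the adjusted p was between 0.07 and 0.12: each of the 3 untreated TβRII flox/flox libraries, replicate 2 of untreated TβRII-/- cells, replicates 1 and 2 of H2O2-treated TβRII flox/flox cells and replicate 1 of H2O2-treated TβRII-/- cells. For H2O2 the log2 difference was -0.003 (adjusted p = 0.865, exact permutation test within genotype).

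**Figure D3:**
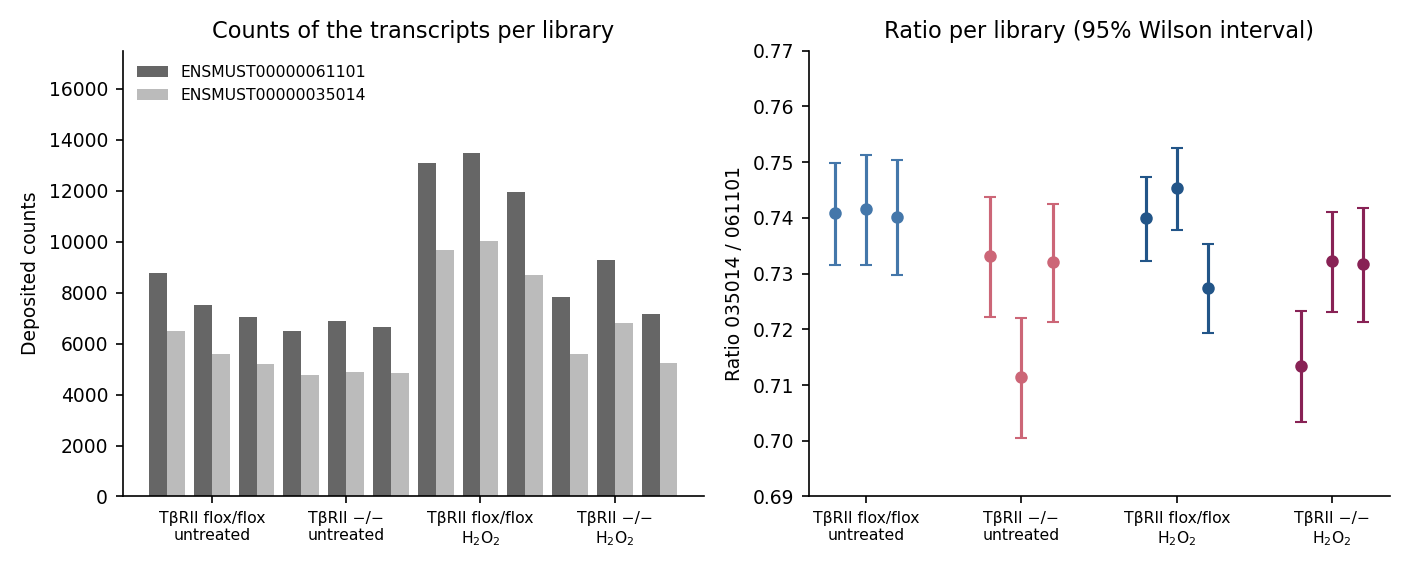
Left, deposited counts of ENSMUST00000061101 (dark bars) and ENSMUST00000035014 (light bars) in each library, on an axis from 0. Right, their ratio in each library with the 95% Wilson interval, on an axis that runs from 0.69 to 0.77, where the 12 ratios lie between 0.711 and 0.745.

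Between 25.5% and 28.9% of the counts of the longer transcript had no counterpart among those of the shorter one, whereas exon 2 is 0.876% of its length in GENCODE M39. The authors counted with GENCODE M23, whose models of the transcripts were not used here, so which bases held the additional counts is not known. When this excess was used in place of the whole count, the genotype difference was -0.26 ± 0.07 in untreated cells and -0.85 ± 0.07 with H2O2, and the H2O2 effect was 0.72 ± 0.07 in TβRII flox/flox cells. When ENSMUST00000035014 was used, the same values were -0.38 ± 0.06, -0.94 ± 0.06 and 0.69 ± 0.06. Both were tried after the counts had been seen.

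The other receptors did not follow a common pattern between genotypes. Of 5 genes for TGF-β receptors and coreceptors apart from Tgfbr2, 4 were tested, and in untreated TβRII-/- cells 1 rose, 1 fell and 2 did not pass, where 33.3% of all genes were called higher and 31.4% lower. The median log2 fold change was 0.07 beside 0.01 for all genes. H2O2 in TβRII flox/flox cells raised 3 of the 4, lowered 0 and left 1 that did not pass, with a median of 0.46. There 21% of all genes were called higher and 20.5% lower. In TβRII-/- cells H2O2 raised 2, lowered 0 and left 2 that did not pass (20.5% and 19.1% of all genes). Tgfbr1, the type I receptor, held 1138, 1059 and 1030 normalized counts in untreated TβRII flox/flox libraries and 878, 910 and 841 in untreated TβRII-/- libraries. After H2O2 it held 1346, 1340 and 1256 in TβRII flox/flox cells and 770, 901 and 805 in TβRII-/- cells. The genotypes did not overlap in either condition, and the highest levels were those of H2O2-treated TβRII flox/flox cells. Its log2 fold change between genotypes was -0.30 ± 0.07 (edgeR, adjusted p = 0.0003) without H2O2 and -0.67 ± 0.07 with it. H2O2 raised Tgfbr1 by 0.29 ± 0.07 in TβRII flox/flox cells, and the value in TβRII-/- cells was -0.08 ± 0.07 (adjusted p = 0.339). The H2O2 effects differed by -0.37 ± 0.09 (adjusted p = 0.00951).

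Tgfbr3, the coreceptor betaglycan that presents ligand to TβRII, went the other way between genotypes. It held 1005, 905 and 809 normalized counts in untreated TβRII flox/flox libraries and 1913, 1774 and 1696 in untreated TβRII-/- libraries. After H2O2 the levels were 1381, 1378 and 1480 in TβRII flox/flox cells and 2338, 2118 and 2175 in TβRII-/- cells. Every TβRII-/- library was above every TβRII flox/flox library. The log2 fold change between genotypes was 0.98 ± 0.07 (edgeR, adjusted p = 6.97e-14) without and 0.65 ± 0.07 with H2O2. H2O2 raised Tgfbr3 in both genotypes, by 0.64 ± 0.07 and 0.30 ± 0.07, and these effects differed by -0.34 ± 0.10 (adjusted p = 0.0221). Tgfbr3l, which encodes a betaglycan-like protein, rose with H2O2 by 0.66 ± 0.13 in TβRII flox/flox and by 0.81 ± 0.13 in TβRII-/- cells, and its genotype difference of -0.21 ± 0.14 in untreated cells did not pass (adjusted p = 0.199). Eng, the coreceptor endoglin, had between 32.5 and 48.2 normalized counts as group means and passed in no comparison. Acvrl1, a type I receptor of endothelial cells, was below the filter on low counts.

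Among all 66 tested genes of the TGF-β pathway other than Tgfbr2, 16 rose and 37 fell in untreated TβRII-/- cells and 13 did not pass. Of all genes tested 33.3% were called higher and 31.4% lower. The median log2 fold change was -0.29, beside 0.01 for all genes. In the comparison with H2O2 17 of the 66 rose and 33 fell, where 35.1% of all genes were called higher and 31.3% lower. H2O2 raised 15 and lowered 21 in TβRII flox/flox cells (21% and 20.5% of all genes) and raised 16 and lowered 17 in TβRII-/- cells (20.5% and 19.1%). These lists hold genes chosen for their known roles, and no test of a list was made.

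**Figure D4:**
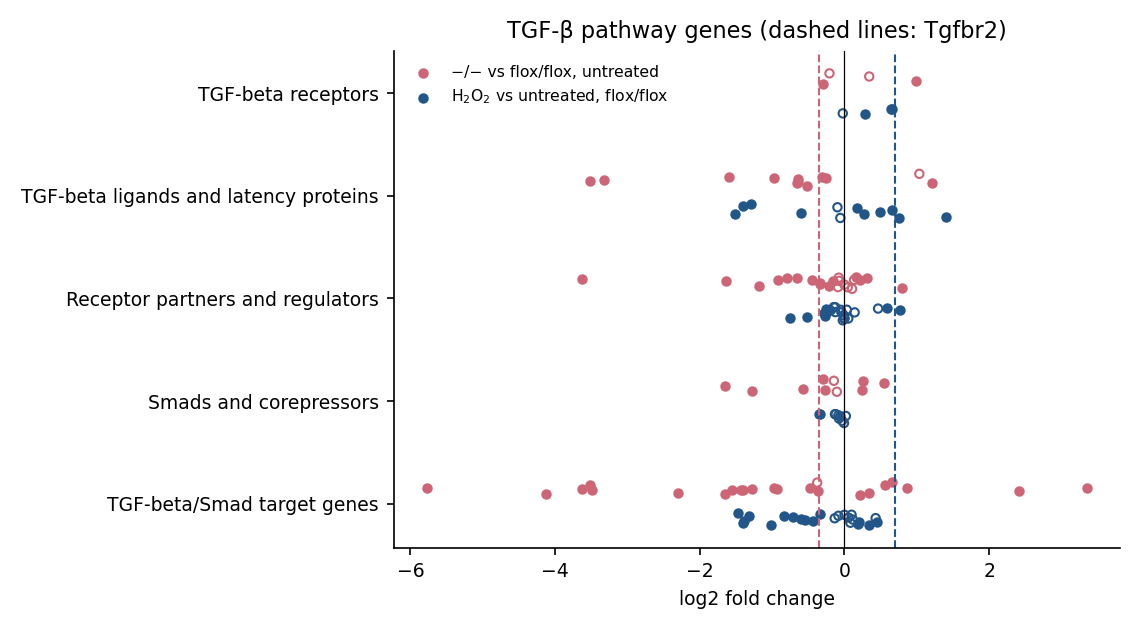
Log2 fold changes (horizontal axis) of the tested genes in 5 lists of the TGF-β pathway, TβRII-/- against TβRII flox/flox untreated in red and H2O2 against untreated in TβRII flox/flox cells in blue, with filled points for adjusted p under 0.05 and dashed lines for Tgfbr2. The target list reaches furthest to the left between genotypes, and the Smads and corepressors lie close to 0 in the H2O2 comparison, with Smad4 the lowest at -0.35.

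Of 12 tested genes for ligands and for the proteins that hold or release them, 10 fell, 1 rose and 1 did not pass in untreated TβRII-/- cells, with a median of -0.64. In this comparison 31.4% of all genes were called lower and 33.3% higher. All 3 ligands fell, Tgfb1 by 0.31, Tgfb2 by 0.52 and Tgfb3 by 0.64 on the log2 scale. The largest falls were those of the latent TGF-β binding proteins Ltbp2 (-3.52 ± 0.28) and Ltbp1 (-3.33 ± 0.09, adjusted p = 1.04e-24). Ltbp1 held 2004, 1763 and 1505 normalized counts in untreated TβRII flox/flox libraries and 172, 179 and 173 in untreated TβRII-/- libraries. The groups were far apart, and the TβRII-/- libraries differed little among themselves. Itgb8, the β chain of an integrin that releases active TGF-β, was the gene that rose, by 1.21 ± 0.10, from 115.1 ± 6.47 to 266 ± 19.7 normalized counts.

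With H2O2 in TβRII flox/flox cells, 6 genes of this list rose, 4 fell and 2 did not pass (median 0.06, against 0.01 for all genes). There 21% of all genes were called higher and 20.5% lower. Itgb8 rose by 1.40 ± 0.10, while Ltbp1 fell by 1.51 on the log2 scale to 617 ± 33.7 normalized counts. In TβRII-/- cells Ltbp1 had 170 ± 14.7 after H2O2 and a log2 fold change of -0.04 ± 0.12, and the H2O2 effects differed by 1.47 ± 0.14 (edgeR, adjusted p = 2.23e-08). For Itgb8 the H2O2 effects differed by -0.55 ± 0.13.

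Of 22 genes for proteins that bind, modify or act directly downstream of the receptors, 11 fell, 4 rose and 7 did not pass in untreated TβRII-/- cells (median -0.13). In this comparison 31.4% of all genes were called lower and 33.3% higher. Pmepa1, a TGF-β-induced inhibitor of Smad phosphorylation, fell the most (-3.63 ± 0.09), from 3639 ± 503 to 295 ± 24.1 normalized counts. The pseudoreceptor Bambi fell by 1.63 on the log2 scale at a low level, from 11.5 ± 3.89 to 3.65 ± 1.54 normalized counts. Shc1, an adaptor that TGF-β receptors can phosphorylate, rose by 0.80 ± 0.06, and Tab1, an activator of the kinase TAK1, by 0.31 ± 0.08. In TβRII flox/flox cells H2O2 raised 2 genes of this list and lowered 7, with 13 not passing (median -0.05). There 21% of all genes were called higher and 20.5% lower. The deubiquitinase Usp11 had the largest rise (0.77 ± 0.13), and Cav1, the caveolar coat protein, the largest fall (-0.75 ± 0.06).

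Of 10 genes for Smads and their corepressors, 5 fell, 3 rose and 2 did not pass in untreated TβRII-/- cells (median -0.21). In this comparison 31.4% of all genes were called lower and 33.3% higher. The receptor-activated Smads changed little, Smad2 with a log2 fold change of -0.10 that did not pass (adjusted p = 0.109) and Smad3 with a rise of 0.24. The corepressor Skil fell by 1.66 ± 0.07 on the log2 scale and the inhibitory Smad7 by 1.27 ± 0.09, both of them feedback genes that TGF-β induces. Ppm1a, a phosphatase of Smads, rose by 0.55 ± 0.06, and the inhibitory Smad6 rose by 0.26 ± 0.11 (adjusted p = 0.0339). In TβRII flox/flox cells H2O2 lowered 2 of the 10, with Smad4 the lowest (-0.35 ± 0.06), and the other 8 did not pass (median -0.08). There 20.5% of all genes were called lower and 21% higher, so the share of Smads and corepressors lowered was close to that of all genes.

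Of 23 tested genes known as targets of TGF-β and Smads, 15 fell, 7 rose and 1 did not pass in untreated TβRII-/- cells, and the median of -0.98 was the lowest of the 5 lists. In this comparison 31.4% of all genes were called lower and 33.3% higher, so the share of targets that rose was close to that of all genes. The matrix metalloproteinase Mmp2 fell by 4.12 ± 0.09 (edgeR, adjusted p = 4.01e-28) and the connective tissue growth factor Ccn2 by 2.31 ± 0.07 on the log2 scale. Not all targets fell. Acta2, which encodes smooth muscle actin, rose by 2.41 ± 0.07, from 469 ± 22.1 to 2495 ± 141 normalized counts. Tgfbi, an extracellular matrix protein, rose from 3.91 ± 2.99 to 41.4 ± 6.42 (3.35 ± 0.38). Cdkn2b, a cell cycle inhibitor, rose by 0.56 ± 0.07.

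With H2O2, which raised Tgfbr2 in TβRII flox/flox cells, 11 of these targets fell, 4 rose and 8 did not pass there (median -0.13). The shares of all genes called in that comparison were 20.5% lower and 21% higher. Ccn2 fell the most, from 30885 ± 2855 to 11133 ± 398 normalized counts (-1.47 ± 0.07). Cdkn2b had the largest rise (0.45 ± 0.07). In TβRII-/- cells 8 fell, 4 rose and 11 did not pass (median -0.19), with Ccn2 at -1.35 ± 0.07. For H2O2 in these cells 19.1% of all genes were called lower and 20.5% higher. The difference of the H2O2 effects passed for 6 of the 23 targets, 1 higher and 5 lower in TβRII-/- cells, and for 13 of the 66 pathway genes in all, 3 higher and 10 lower. Of all genes 3.9% were called higher and 6.28% lower in this test.

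The genes next to Tgfbr2 were examined for a change common to the region. On the side towards lower coordinates the nearest tested gene was Stt3b, a catalytic subunit of the oligosaccharyltransferase, and on the other side Rbms3, an RNA-binding protein, with centres 0.855 and 1.09 Mb from that of Tgfbr2 on GRCm39. Stt3b held 5763, 5780 and 4901 normalized counts in untreated TβRII flox/flox libraries, 4386, 4201 and 4010 in untreated TβRII-/- libraries, 7040, 6931 and 6998 in H2O2-treated TβRII flox/flox libraries and 4418, 4306 and 4487 in H2O2-treated TβRII-/- libraries. Its groups stood in the same order as those of Tgfbr2 for TβRII flox/flox cells, while the TβRII-/- groups overlapped. Its log2 fold changes were -0.38 ± 0.06 between untreated genotypes, -0.67 ± 0.06 with H2O2, 0.35 ± 0.06 for H2O2 in TβRII flox/flox cells and 0.07 ± 0.06 in TβRII-/- cells, where it did not pass. The H2O2 effects differed by -0.28 ± 0.09 (adjusted p = 0.0386).

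Rbms3 held 749, 747 and 782 normalized counts in untreated TβRII flox/flox libraries and 61.7, 67.8 and 83.3 in untreated TβRII-/- libraries. That was a log2 fold change of -3.41 ± 0.11 (edgeR, adjusted p = 3.37e-23), larger in size than that of Tgfbr2. H2O2 lowered Rbms3 in TβRII flox/flox cells (-0.23 ± 0.08) and raised it in TβRII-/- cells (0.48 ± 0.14), and these effects differed by 0.71 ± 0.16. Of the 20 tested genes nearest to Tgfbr2, 10 on each side, 9 rose, 5 fell and 6 did not pass between untreated genotypes, where 33.3% of all genes were called higher and 31.4% lower. The median was 0.09 beside 0.01 for all genes. For H2O2 in TβRII flox/flox cells 8 rose, 2 fell and 10 did not pass (median 0.15), where 21% of all genes were called higher and 20.5% lower.

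**Figure D5:**
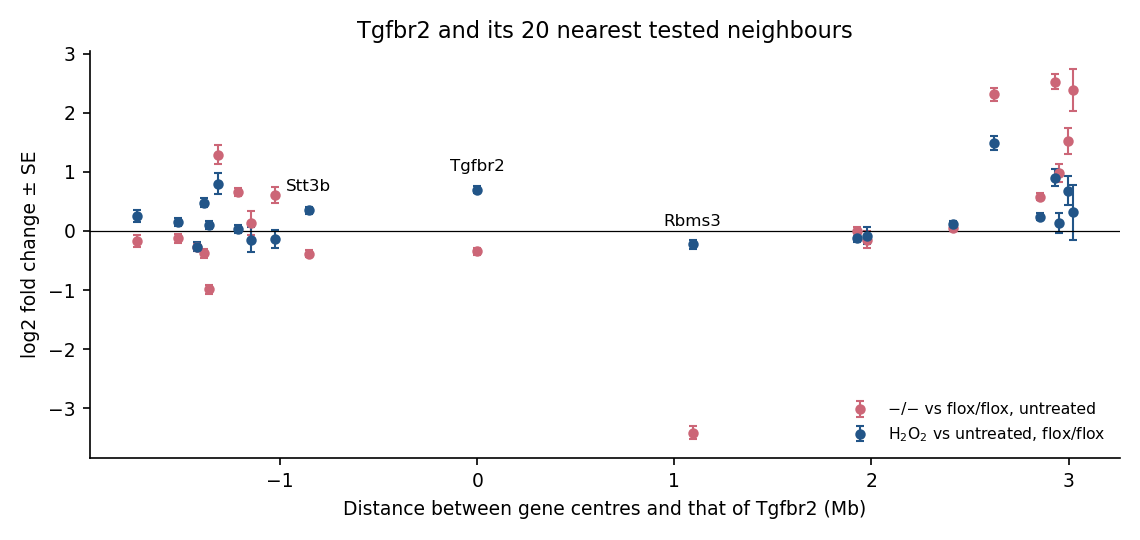
Log2 fold change ± SE (vertical axis) of Tgfbr2 and its 20 nearest tested neighbours against the distance of gene centres from that of Tgfbr2 in Mb, TβRII-/- against TβRII flox/flox untreated in red and H2O2 against untreated in TβRII flox/flox cells in blue. The neighbours lie on both sides of 0 in the genotype comparison, with Rbms3 the lowest at -3.41.

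The genes whose log2 level over the 12 libraries was most like that of Tgfbr2 were Pign (Pearson r = 0.996), Glce (0.992), Aqp1 (0.992), Cadm1 (0.990) and Pigk (0.990), among 12272 protein-coding genes with a mean count of at least 10. The 12 libraries fall into 4 groups and share the shifts between them, so that r describes mostly the order of the groups. Pign and Pigk encode enzymes of glycosylphosphatidylinositol anchor synthesis and attachment, Glce an epimerase of heparan sulfate synthesis, Aqp1 the water channel of the proximal tubule and Cadm1 a cell adhesion molecule. Pign held 2359, 2253 and 2042 normalized counts in untreated TβRII flox/flox libraries, 1986, 1839 and 1840 in untreated TβRII-/- libraries, 3147, 3289 and 3211 in H2O2-treated TβRII flox/flox libraries and 2030, 2071 and 2005 in H2O2-treated TβRII-/- libraries. As with Tgfbr2, the H2O2-treated TβRII flox/flox libraries were the highest. Aqp1 had the widest range of the 5, from a mean of 4421 ± 175 in untreated TβRII-/- cells to 14611 ± 197 in H2O2-treated TβRII flox/flox cells. It rose with H2O2 by 1.04 ± 0.07 in TβRII flox/flox cells and by 0.22 ± 0.07 in TβRII-/- cells. In contrast, Lrp2, another proximal tubule gene, did not pass for H2O2 in either genotype, with log2 fold changes of 0.03 ± 0.08 and 0.05 ± 0.08. Ggt1, the γ-glutamyltransferase of the brush border, fell by 1.83 ± 0.26 on the log2 scale in TβRII flox/flox cells. Of the 6 tested proximal tubule markers 1 rose, 1 fell and 4 did not pass there (21% of all genes higher and 20.5% lower). For H2O2 in TβRII-/- cells 1 rose, 0 fell and 5 did not pass (20.5% and 19.1% of all genes).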

How the data were processed

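RNA of 12 libraries of PT cells, 3 in each of 4 groups taken from the sample labels, was analysed. The title of 1 library, replicate 3 of the untreated TβRII flox/flox group, follows another pattern than the others, and it was grouped by its genotype and treatment labels. Per the labels and methods, TruSeq stranded mRNA libraries were sequenced on a NovaSeq, and the authors trimmed reads with fastp, used STAR for alignment to the build GRCm38.p6 and featureCounts for counting, both with GENCODE M23 models. The values the authors deposited are raw counts per transcript, in which a read can count on several transcripts of a gene. The plan of the tests had assumed counts per gene. Of 106332 transcripts 104820 were matched to GENCODE M39, and the 1512 others (1.22% to 1.28% of counts) were left out. The transcript with the highest total stood for its gene. Transcript lengths and exons are from GENCODE M39 and can differ from the models used for counting.

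Counts were tested in R 4.3.3 with edgeR 4.0.16 (TMM, filterByExpr, glmQLFit and glmQLFTest on 4 group means; adjusted p under 0.05). Normalized counts are counts scaled to the mean effective library. The methods speak in general of independent experiments or biological replicates in vitro, and the labels do not say how the replicates of a group were made, so p-values measure the spread between these libraries. Replicates differed by more than sampling noise (chi-square per gene between 3.52 and 12.1). The transcript ratio was tested by two-sided exact permutation. Wilson intervals cover counting error only. Tests were tried on simulated counts. Alternatives were size factors of DESeq2 1.42.0 in edgeR, DESeq2 itself, no filter, at least 10 counts in every library, sums over transcripts, only the groups compared, a replicate block, no strata or the plain ratio, and leaving out each library; 2 more, with the shorter transcript or with the excess of the longer, were added after seeing the data. Genes named are the TGF-β receptors, the 2 genes with the largest rise and fall between untreated genotypes and the 1 with the largest rise and fall with H2O2 in TβRII flox/flox cells in each other list (adjusted p under 0.05), the nearest tested genes, the 5 most similar genes and 5 proximal tubule markers. A gene that meets this rule is not reported here. The ligands, Smad2, Smad3, Slc22a6, Kap, Postn, Kdr, Lum, Meox1 and Gm4668 were named outside this rule, with their values known. The members and lists were chosen with earlier results of these data known.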

Additional observations from a re-analysis of the deposited data

Results flagged for a closer look

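The test of the difference between the H2O2 effects of the genotypes (TβRII-/- minus TβRII flox/flox, log2 scale, edgeR) passed at an adjusted p under 0.05 for 15 of the 35 tested genes that the naming rule gives, where 10.2% of all genes were called. Many of these genes were named for large changes between groups. Among receptors these were Tgfbr2 (-0.57), Tgfbr1 (-0.37) and Tgfbr3 (-0.34). In the rest of the pathway they were Ltbp1 (1.47), Itgb8 (-0.55), Cav1 (-0.25), Shc1 (-0.29) and the target Acta2 (-0.58). The neighbours Stt3b (-0.28) and Rbms3 (0.71) passed too. All 5 genes most like Tgfbr2 passed, Aqp1 with -0.82, Glce with -0.45, Pign with -0.43, Cadm1 with -0.40 and Pigk with -0.29; they were chosen by a pattern that contains this difference, so their values are a description. The medium differed with H2O2 in both genotypes, and no cause was tested.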

How the results depend on the processing

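Of 245 values recomputed under an alternative, 237 kept their direction and their side of the threshold, counts of genes within 1.5 times included, and 8 did not; all 8 belong to the genotype difference in the transcript ratio. The log2 fold change of Tgfbr2 ranged from -0.43 to -0.26 between untreated genotypes, from -0.97 to -0.85 with H2O2, from 0.63 to 0.79 for H2O2 in TβRII flox/flox cells, from 0.10 to 0.15 in TβRII-/- cells (adjusted p between 0.0557 and 0.318, edgeR or DESeq2) and from -0.68 to -0.52 for the difference of the H2O2 effects. Leaving out each library in turn, the genotype difference in the ratio passed the exact permutation test in 5 of 12 runs and not in 7 (a count of calls from 0 to 1). The cause of the lost calls was not tested.

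Replicate numbers are shared between groups, but libraries with the same number did not deviate together (r between -0.101 and 0.0582), so they were not treated as pairs. With the replicate number as a block the ratio test called 0 genotype differences (adjusted p = 0.125, where the smallest unadjusted p is 0.03125), and the log2 fold change of Tgfbr2 between untreated genotypes was -0.34. It left the calls of Tgfbr2 and its transcripts as they were. The number of pathway genes called went from 33 to 34 for H2O2 in TβRII-/- cells and from 13 to 12 for the difference of the H2O2 effects, and was the same in the other comparisons. With between 6485 and 13474 counts of Tgfbr2 in a library counting error was between 0.861% and 1.24%, small beside the spread of untreated TβRII flox/flox libraries (10.05%) and close to that of H2O2-treated TβRII-/- libraries (1.35%). Genes near the filter on low counts, such as Bambi, are less precise.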
